A study of Oryza sativa with 36 samples.

Results

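OsEPF1, OsEPF2, OsEPFL9a and OsEPFL9b are the rice genes of the secreted peptides that restrain or promote the making of stomata. They were picked by gene ID (Os04g0637300, Os04g0457700, Os01g0914400 and Os08g0524400), by a rule that uses no measured value, and are 4 of the 37862 gene IDs counted. All 4 passed the filter on low counts, which left 26726 genes to test. The IDs place OsEPF1 and OsEPF2 on chromosome 4, OsEPFL9a on chromosome 1 and OsEPFL9b on chromosome 8 of the IRGSP-1.0 build. The count table holds IDs alone, so each name stands for its ID here.

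The EPF and EPFL peptides are small, cysteine-rich and secreted, and they carry signals between neighbouring cells of the young epidermis. In Arabidopsis, EPF1 and EPF2 bind receptor kinases of the ERECTA family, which work with the receptor-like protein TMM and, through a MAP kinase cascade, hold back the bHLH factor SPEECHLESS that starts the stomatal lineage. EPFL9, also called STOMAGEN, is made in inner leaf tissue there, competes for the same receptors and promotes stomata. In rice leaves, more OsEPF1 is known to give fewer stomata, and loss of OsEPFL9a is also known to give fewer stomata.

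Poly(A)-selected RNA of florets was sequenced from 2 lines of the indica cultivar IR64. The OsEPF1-oe line, also spelled OsEPF1-oeS and OsEPF1-oe-S, carries extra OsEPF1, and untransformed IR64 is its control. Each line gave 3 libraries at each of developing stages 1 to 5, collected 75 to 85 days after sowing, and 3 of mature florets, collected at about 95 days from headed panicles that had not yet flowered, which makes 36 libraries in all. Each developing library pooled RNA of 3 plants; no pooling is stated for mature florets. The labels give 1 overexpressing line, and the sources used here do not name the promoter of the transgene; effects of the line and of the transgene cannot be told apart.

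Libraries held 22372257 to 55476576 counted reads. Levels are given as CPM, reads of a gene scaled to a common library size with trimmed-mean (TMM) factors, which compares 1 gene between libraries and not 2 genes with each other, because gene lengths were not used. A gene is called changed at an adjusted p below 0.05 in edgeR's quasi-likelihood test, with Benjamini-Hochberg adjustment over all 26726 genes. Log2 differences are given with a standard error worked back from the difference and the F value of its test. The fit does not estimate it directly, so it is approximate. All 10 floret organ identity genes on the marker list were detected in every group, and in none of the 6 stages was one of them called between the lines. In the mean over stages 1 to 5, a contrast chosen after the single-stage values were seen, 1 of the 10 was called higher and 3 lower in OsEPF1-oe. Libraries were compared with their groups by the median absolute log2 deviation over genes. OsEPF1-oe replicate 1 at stage 5, IR64 replicate 1 at stage 3 and IR64 replicate 3 of mature florets deviated most. Fits with 1 library left out were run for the peptide genes and the pathway genes below. Calls of the peptide genes that were lost in such a fit are named with their results. Marker genes and the genes most like each peptide gene had no such fits. Their calls were therefore not checked against the deviating libraries.

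**Figure D1:**
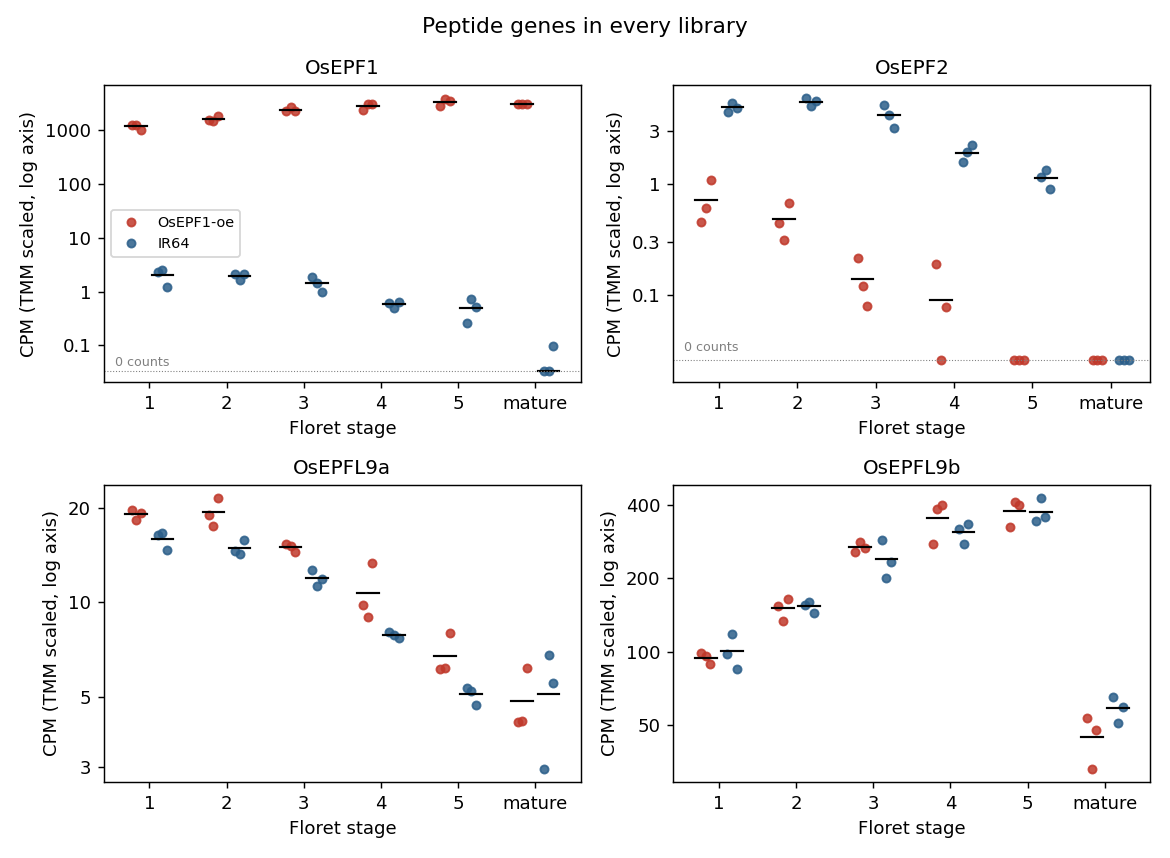
Level of each peptide gene in every library, in CPM on a log axis, by floret stage. Points are the 3 libraries of each line, OsEPF1-oe in red left of IR64 in blue, bars are means, and the dotted line holds libraries with 0 counts; OsEPF1 and OsEPF2 separate the lines at every developing stage, in opposite directions.

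The inhibitory peptide gene OsEPF1 is the one the transgene supplies, so its level checks the labels. At stage 1 it stood at 1237, 1224 and 1001 CPM in the OsEPF1-oe libraries, against 2.27, 2.50 and 1.23 CPM in the IR64 libraries. Stage 5 gave 2759, 3773 and 3446 CPM in OsEPF1-oe, against 0.261, 0.725 and 0.511 CPM in IR64. All 18 OsEPF1-oe libraries lay far above all 18 IR64 libraries, and OsEPF1 alone made up 0.111% to 0.354% of the counted reads of an OsEPF1-oe library. The table has 1 row for OsEPF1, so reads of the transgene and of the native gene could not be told apart.

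The gap between the lines widened through development, because the 2 lines ran in opposite directions. In OsEPF1-oe the mean over stages 1 to 5 and maturity was 1154 ± 132, 1574 ± 164, 2362 ± 253, 2775 ± 361, 3326 ± 518 and 2990 ± 54 CPM (SD, n = 3 each). In IR64 it was 2.00 ± 0.68, 1.95 ± 0.26, 1.42 ± 0.43, 0.585 ± 0.076 and 0.499 ± 0.23 CPM over stages 1 to 5. The log2 difference of OsEPF1-oe over IR64 was accordingly 9.15 ± 0.27, 9.65 ± 0.27, 10.75 ± 0.29, 12.20 ± 0.31 and 12.69 ± 0.32 over stages 1 to 5. A test of whether the difference between the lines varied over the 5 developing stages gave an adjusted p of 5.5e-07 for OsEPF1, in a test that called 1.19% of all genes.

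Mature IR64 florets were almost without native OsEPF1 reads. The 3 mature IR64 libraries held 2 reads in all, both in replicate 3, against 227291 in the mature OsEPF1-oe libraries. Scaled for depth this is 84867-fold higher in OsEPF1-oe, with a 95% counting interval of 23493 to 700775, and without IR64 replicate 3 it is at least 36421-fold, setting 3 counts for the 0 in the other two.

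OsEPF2, the other inhibitory peptide gene, was lower in OsEPF1-oe florets at all 5 developing stages, by 6.79-fold at stage 1 and 28.5-fold at stage 3. In Arabidopsis its counterpart EPF2 acts earliest, on entry into the lineage, and EPF1 acts later, on the spacing and division of lineage cells. At stage 1 OsEPF2 stood at 0.457, 0.613 and 1.08 CPM in OsEPF1-oe, against 4.45, 5.40 and 4.81 CPM in IR64. Values at stage 2 were 0.444, 0.315 and 0.678 CPM in OsEPF1-oe, against 5.92, 5.03 and 5.54 CPM in IR64. The highest OsEPF1-oe library lay well below the lowest IR64 library at both stages.

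The OsEPF1-oe libraries then ran out of OsEPF2 reads while IR64 still had them. Stage 3 gave 0.215, 0.121 and 0.0803 CPM in OsEPF1-oe, against 5.13, 4.14 and 3.17 CPM in IR64. Stage 4 gave 0.192, 0 and 0.0785 CPM in OsEPF1-oe, which is 7 reads over 3 libraries, against 1.56, 1.92 and 2.25 CPM in IR64. At stage 5 no OsEPF1-oe library had a read, which allows up to 0.0403 CPM over the group, against 1.15, 1.34 and 0.894 CPM in IR64. Mature florets had 0 reads in all 6 libraries of both lines, so no difference between the lines could be measured there.

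The log2 difference in OsEPF2, OsEPF1-oe over IR64, was -2.76 ± 0.37, -3.52 ± 0.39, -4.83 ± 0.46 and -4.33 ± 0.50 over stages 1 to 4, with the highest of the adjusted p-values, 1.3e-04, at stage 1 and a 20.1-fold lower level at stage 4. At stage 5 the 0 reads against 89 put OsEPF2 at least 28.3-fold lower, taking 3 counts over the group as the floor (adjusted p = 8.2e-06). These calls held in every alternative tried, each left-out library included. Whether the size of the difference varied over the stages was not settled. The test for OsEPF2 gave an adjusted p of 0.076, against 0.0011 with DESeq2, 0.049 without OsEPF1-oe replicate 1 at stage 1, 0.024 without OsEPF1-oe replicate 1 at stage 4 and 0.035 without OsEPF1-oe replicate 2 at stage 4. The other 33 of 37 alternatives left it uncalled, with an adjusted p of up to 0.18, without OsEPF1-oe replicate 3 at stage 5. RNA came from whole florets, so fewer cells that express OsEPF2 and less RNA in each such cell cannot be told apart.

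**Figure D2:**
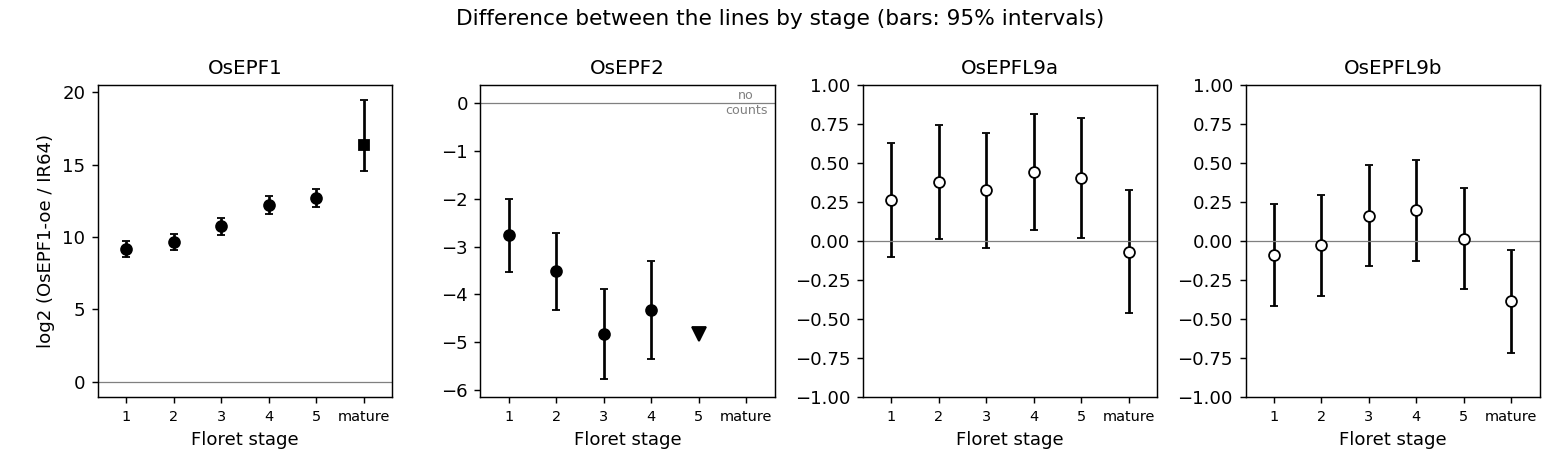
Log2 difference of OsEPF1-oe over IR64 for each peptide gene by floret stage, with 95% intervals. A value above 0 means higher in OsEPF1-oe. Intervals use the standard error worked back from the F value. OsEPF1 at maturity is instead a read ratio with a counting interval, and OsEPF2 at stage 5 is a bound without an interval. OsEPF1 lies between 9.15 and 12.69 at the developing stages, and OsEPF2 lies below 0 there. Values of OsEPFL9a and OsEPFL9b lie near 0 and none was called. Their intervals exclude 0 for OsEPFL9a at stages 2, 4 and 5 and for OsEPFL9b at maturity.

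OsEPFL9a, a STOMAGEN-type gene of the activating branch, was slightly higher in OsEPF1-oe florets throughout development, a difference too small to be called at any single stage. Stage 1 gave 19.7, 18.3 and 19.3 CPM in OsEPF1-oe, against 16.4, 16.6 and 14.7 CPM in IR64. Stage 2 gave 19.0, 17.5 and 21.5 CPM in OsEPF1-oe, against 14.5, 14.2 and 15.8 CPM in IR64. Stage 3 gave 15.3, 15.1 and 14.5 CPM in OsEPF1-oe, against 12.7, 11.3 and 11.9 CPM in IR64. At each of these stages the lowest OsEPF1-oe library was above the highest IR64 library.

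The later stages showed the same order at lower levels. At stage 4 OsEPFL9a stood at 9.80, 8.97 and 13.3 CPM in OsEPF1-oe, against 8.07, 7.88 and 7.68 CPM in IR64. At stage 5 it stood at 6.12, 6.19 and 7.97 CPM in OsEPF1-oe, against 5.36, 5.22 and 4.73 CPM in IR64. Mature florets had 4.18, 4.20 and 6.20 CPM in OsEPF1-oe, against 2.96, 6.80 and 5.53 CPM in IR64, and only there did the lines overlap.

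Groups that do not overlap are common in these data: 14.2%, 15.7%, 14.2%, 23.1% and 15.0% of all genes tested had none at stages 1 to 5. Higher libraries without overlap at all 5 developing stages were rarer, at 173 genes or 0.647% of those tested, and 33 of these, OsEPFL9a among them, were called at no single stage. The log2 difference in OsEPFL9a was 0.26 ± 0.18, 0.38 ± 0.18, 0.33 ± 0.18, 0.44 ± 0.18 and 0.41 ± 0.19 over stages 1 to 5, with adjusted p-values of 0.94, 0.55, 0.61, 0.23 and 0.35 in that order. At maturity it was -0.07 ± 0.19 (adjusted p = 0.91).

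A contrast chosen after the single-stage values were seen, the mean of the 5 developing stages, put OsEPFL9a 1.29-fold higher in OsEPF1-oe, with a log2 difference of 0.36 ± 0.08 and an adjusted p of 0.0026. It was called under all 37 alternatives, with log2 values of 0.33 to 0.39. The contrast called 12.6% of all genes, 5.82% as higher, so a call in it is frequent. Because it was chosen on these values, its p-value is not independent evidence. The test of whether the difference in OsEPFL9a varied over the 5 stages gave an adjusted p of 1.

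Markers of other cell types moved in the same comparison. The 7 photosynthesis genes of green tissue summed to 166 to 202 CPM at stage 4 in OsEPF1-oe, against 275 to 347 CPM in IR64. Of these, 0, 0, 2, 5, 3 and 0 were called lower in OsEPF1-oe over stages 1 to 5 and maturity, and none higher. The 5 tapetum genes summed to 391 to 670 CPM at stage 5 in OsEPF1-oe, against 895 to 1620 CPM in IR64, with 0, 2, 1, 1, 2 and 0 called lower over the same stages. Of all genes tested, 0.352%, 0.718%, 1.03%, 1.29%, 1.31% and 1.25% were called lower at those stages. No tapetum gene was called higher, but they did not all move together. Most of the stage 5 gap lay in CYP703A3 (mean 87.6 CPM in OsEPF1-oe, 497 CPM in IR64) and CYP704B2 (51.05 and 313 CPM). At stage 5 TDR (345 and 381 CPM) and EAT1 were also lower, and UDT1 was higher (7.04 and 6.04 CPM). At stage 4 EAT1 (27.7 and 14.9 CPM) and UDT1 (8.69 and 7.48 CPM) were higher in OsEPF1-oe, and the other tapetum genes lower. In the mean over stages 1 to 5, 6 of the 7 photosynthesis genes and 4 of the 5 tapetum genes were called lower, against 6.79% of all genes. No gene of either list was at 0 in a group, both sums were higher at stage 5 than at stage 1 in each line, and their part in the OsEPF2 and OsEPFL9a differences was not tested. The guard cell channel gene OsSLAC1 was called lower in OsEPF1-oe at stage 5, at 0.0356 to 0.188 CPM in OsEPF1-oe, against 1.05 to 1.49 CPM in IR64. It was called at no other stage and not in the mean over stages 1 to 5.

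OsEPFL9b, the other STOMAGEN-type gene, was called in no comparison of the lines. Its range at stage 1 was 89.0 to 98.7 CPM in OsEPF1-oe, against 85.3 to 119 CPM in IR64. At stage 3 it was 257 to 283 CPM in OsEPF1-oe, against 200 to 287 CPM in IR64. At stage 5 it was 326 to 412 CPM in OsEPF1-oe, against 344 to 426 CPM in IR64. The lines overlapped at every developing stage.

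In mature florets OsEPFL9b stood at 53.6, 33.2 and 48.0 CPM in OsEPF1-oe, against 65.1, 51.3 and 59.6 CPM in IR64, again with overlap. The log2 difference there was -0.38 ± 0.16 (adjusted p = 0.24). The log2 differences of stages 1 to 5 were -0.09, -0.03, 0.16, 0.20 and 0.02, with standard errors of 0.16, and the mean over those stages was 0.05 ± 0.07, with a 95% interval of -0.09 to 0.20. The interval of OsEPFL9a for the same mean was 0.20 to 0.53, and the difference between the 2 genes was not tested.

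Of the 4 peptide genes, 2 were thus called between the lines at each developing stage and 1 at maturity, against 0.834%, 1.18%, 1.69%, 2.38%, 2.45% and 2.02% of all genes over stages 1 to 5 and maturity. OsEPF1 is the gene the line was built to overexpress, so OsEPF2 is the only other call among them.

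Through IR64 development, the inhibitory genes and OsEPFL9a declined while OsEPFL9b climbed. OsEPF2 had its highest mean at stage 2, but the libraries of stages 1, 2 and 3 all overlapped. Its means ran 4.88 ± 0.48, 5.50 ± 0.45, 4.15 ± 0.98, 1.91 ± 0.35 and 1.13 ± 0.22 CPM over stages 1 to 5 (SD, n = 3 each). OsEPFL9a ran 15.9, 14.9, 11.9, 7.87, 5.10 and 5.10 CPM on average over stages 1 to 5 and maturity. OsEPFL9b ran 101, 154, 240, 309, 375 and 58.6 CPM over the same stages, so its highest developing mean directly preceded its lowest value. OsEPF1 in IR64 overlapped between neighbouring stages except from stage 3 to 4 and from stage 5 to maturity.

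OsEPF1, OsEPF2 and OsEPFL9a were all called lower in IR64 at the step from stage 3 to 4, at which 15.2% of all genes were called. OsEPF1 fell by 1.21 on the log2 scale (SE 0.31, adjusted p = 0.0060), OsEPF2 fell by 1.11 (SE 0.34, adjusted p = 0.030) and OsEPFL9a fell by 0.60 (SE 0.18, adjusted p = 0.022). OsEPFL9b stood at 0.36 ± 0.16 for that step and was not called (adjusted p = 0.13). The call of OsEPF1 was lost without IR64 stage 3 replicate 1 (adjusted p = 0.052) and in a fit of the 6 libraries compared (0.051). That of OsEPF2 was lost without stage 3 replicates 1 or 2 or stage 4 replicates 1 or 2 (0.060 to 0.13). That of OsEPFL9a was lost without stage 3 replicates 1 or 3 or stage 4 replicates 2 or 3 (0.050 to 0.076).

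At the other developing steps of IR64, OsEPFL9b rose from stage 1 to 2 by 0.61 ± 0.16 on the log2 scale (adjusted p = 0.011; 10.8% of genes called) and from stage 2 to 3 by 0.64 ± 0.16 (adjusted p = 0.0038; 19.7% of genes called). The first of these was lost without IR64 stage 1 replicate 3 (adjusted p = 0.10). From stage 4 to 5, where 10.4% of genes were called, OsEPFL9a was the only one called and fell by 0.62 (SE 0.19, adjusted p = 0.027), a call lost without any 1 of the 6 libraries compared (0.058 to 0.093). OsEPF2 gave -0.75 ± 0.36 at that step and was not called (adjusted p = 0.23).

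In OsEPF1-oe, OsEPFL9b followed a like course, and OsEPF1 climbed. OsEPFL9b rose by 0.67 ± 0.16 from stage 1 to 2 (adjusted p = 0.0057; 9.06% of genes called) and by 0.83 ± 0.16 from stage 2 to 3 (adjusted p = 2.5e-04; 22.4% of genes called). From stage 3 to 4 it gave 0.40 ± 0.16 (adjusted p = 0.10), which was called with DESeq2 (0.048) and without OsEPF1-oe stage 4 replicate 1 (0.55, adjusted p = 0.031). OsEPF1 rose by 0.59 ± 0.18 from stage 2 to 3 (adjusted p = 0.020), and gave 0.45 ± 0.18 from stage 1 to 2 (adjusted p = 0.14), 0.23 ± 0.18 from stage 3 to 4 and 0.26 ± 0.18 from stage 4 to 5. Its call was lost without OsEPF1-oe stage 2 replicate 1 (0.072), stage 2 replicate 2 (0.089) or stage 3 replicate 2 (0.098), and the step from stage 1 to 2 was called only in a fit of the 6 libraries compared (0.048).

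OsEPF2 and OsEPFL9a declined in OsEPF1-oe as well. OsEPF2 fell by 1.72 from stage 2 to 3 (SE 0.51, adjusted p = 0.017), a call lost without OsEPF1-oe stage 2 replicate 3, stage 3 replicate 2 or stage 3 replicate 3 (0.061 to 0.083). From stage 4 to 5, where 7.73% of genes were called, its 0 reads against 7 put it at least 2.26-fold lower (adjusted p = 0.042), but the libraries overlapped and 8 of 12 alternatives lost the call, the replicate block among them (0.058). OsEPFL9a gave -0.37 ± 0.18 from stage 2 to 3 (adjusted p = 0.15), called only in a fit of the 6 libraries compared (0.028). It gave -0.48 ± 0.18 from stage 3 to 4 (adjusted p = 0.080; 12.1% of genes called), which was called with DESeq2 (0.049) and without OsEPF1-oe stage 4 replicate 3 (-0.67, adjusted p = 0.028), and fell by 0.66 from stage 4 to 5 (SE 0.18, adjusted p = 0.023). That call was lost without stage 4 replicate 3 (0.19), stage 5 replicate 1 (0.12) or stage 5 replicate 2 (0.093), and in a fit of the 6 libraries compared (0.11).

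The step to maturity moved 68.6% of all genes in IR64 and 69.3% in OsEPF1-oe, so a call there is the usual outcome. OsEPFL9b was 8.43-fold lower in mature than in stage 5 florets of OsEPF1-oe (log2 difference -3.08 ± 0.17, adjusted p = 1.9e-15) and 6.39-fold lower in those of IR64 (-2.68 ± 0.17, adjusted p = 3.2e-14). In IR64 OsEPF2 had 0 reads at maturity, against 89 at stage 5, which is at least 21.6-fold lower (adjusted p = 9.5e-08). OsEPF1 in IR64 was 14.2-fold lower at maturity, on 2 reads against 39, with a counting interval of 3.68 to 122 (adjusted p = 1.1e-04).

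At the same step OsEPF1 in OsEPF1-oe was not called, and OsEPFL9a was called in OsEPF1-oe and not in IR64; the difference between the lines at that step was not tested. OsEPF1 in OsEPF1-oe gave -0.15 ± 0.18 from stage 5 to maturity (adjusted p = 0.47). OsEPFL9a in IR64 gave a log2 difference of -0.00 ± 0.19 (adjusted p = 0.99), with a 95% interval of -0.40 to 0.39. In OsEPF1-oe it fell by 0.48 (SE 0.19, adjusted p = 0.026), but the libraries overlapped and the call was lost without stage 5 replicate 3 (0.15), mature replicate 1 (0.11) or mature replicate 2 (0.11), and in a fit of the 6 libraries compared (0.098).

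**Figure D3:**
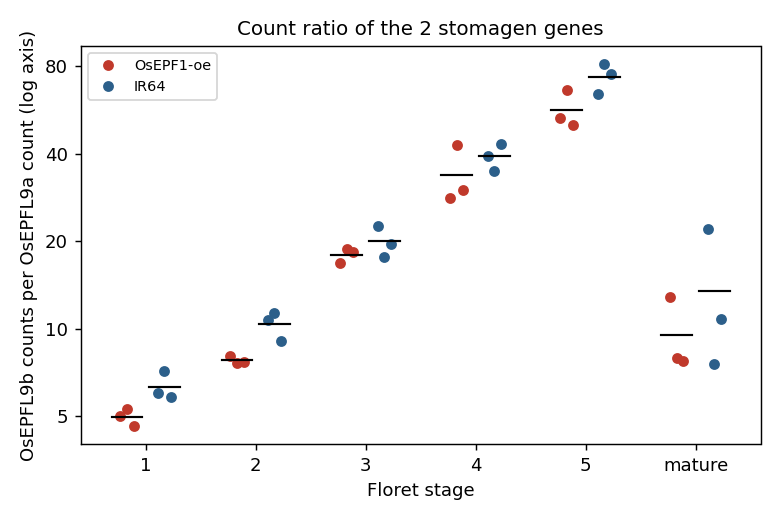
Reads of OsEPFL9b per read of OsEPFL9a in each library, on a log axis, by floret stage; points are the 3 libraries of each line, OsEPF1-oe left of IR64, and bars are means. In both lines the mean ratio was higher at each later stage up to stage 5 and lower again in mature florets.

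The 2 STOMAGEN-type genes ran in opposite directions through development, which the ratio of their reads within a library shows free of library scaling. OsEPFL9b gave 4.96 ± 0.33, 7.79 ± 0.24, 17.97 ± 1.1, 33.7 ± 8.0, 56.6 ± 8.6 and 9.49 ± 2.9 reads per OsEPFL9a read in OsEPF1-oe over stages 1 to 5 and maturity (SD, n = 3 each). In IR64 the ratio was 6.31 ± 0.73, 10.4 ± 1.1, 20.0 ± 2.5, 39.2 ± 4.1, 73.6 ± 8.8 and 13.4 ± 7.6. Its size depends on the lengths of both genes, so only its change can be read. The OsEPF1-oe libraries lay below all IR64 libraries at stages 1 and 2 and overlapped them at stages 3 to 5 and maturity, and the ratio was not tested between the lines.

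The 2 inhibitory genes kept a steadier proportion in IR64. With reads summed over the 3 libraries of a stage, OsEPF1 gave 0.428, 0.359, 0.334, 0.306 and 0.438 reads per OsEPF2 read over stages 1 to 5. All counting intervals lay between 0.220 and 0.645, and they leave out the spread between libraries. Single libraries ran from 0.256 to 0.510 at stage 1 and from 0.226 to 0.571 at stage 5. The interval at stage 5, where OsEPF1 had 39 reads, was 0.293 to 0.645. It is wide and covered the value of each other stage, so it cannot show whether the ratio changed.

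**Figure D4:**
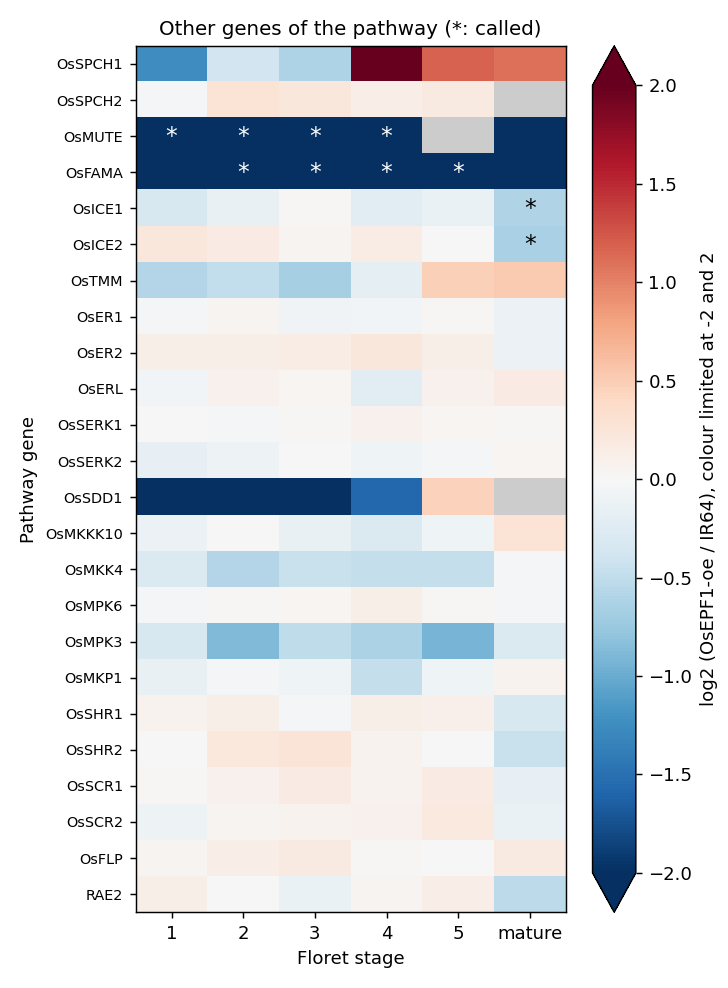
Log2 difference of OsEPF1-oe over IR64 for the 24 listed pathway genes, by floret stage, with called differences marked. A value below 0 means lower in OsEPF1-oe. OsMUTE and OsFAMA carry the calls at the developing stages, and OsICE1 and OsICE2 those in mature florets.

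Of 24 listed pathway genes, all tested, none was called higher in OsEPF1-oe. Called lower were 1, 2, 2, 2, 1 and 2 of them over stages 1 to 5 and maturity. Among all genes tested, 0.352%, 0.718%, 1.03%, 1.29%, 1.31% and 1.25% were called lower and 0.483%, 0.460%, 0.662%, 1.09%, 1.13% and 0.771% higher. The list holds bHLH factors of the lineage, receptors, genes of the MAP kinase cascade, GRAS factors, the MYB gene OsFLP and the protease OsSDD1. It also holds RAE2, a further EPFL peptide gene, so not every listed gene stands for stomatal development. Its median log2 difference ran from -0.12 at maturity to 0.02 at stage 5, beside -0.03 and 0.01 for all genes tested at the same stages. At an unadjusted p below 0.05, 7, 5, 5, 7, 2 and 6 of them passed, against 7.33%, 8.66%, 9.76%, 14.9%, 12.8% and 14.9% of all genes tested.

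The calls at the developing stages were OsMUTE, which commits a lineage cell to become a guard mother cell, and OsFAMA, which acts in guard cell formation. OsMUTE had 2 reads at stage 1 in OsEPF1-oe, against 146 in IR64, a 68.2-fold difference with a counting interval of 18.6 to 569. At stage 4 it had 0 reads in OsEPF1-oe, against 28 in IR64, which is at least 8.10-fold lower. OsFAMA had 0 reads at stage 3 in OsEPF1-oe, against 136 in IR64, at least 31.2-fold lower, and 2 reads at stage 5 in OsEPF1-oe, against 158 in IR64, 75.4-fold lower with an interval of 20.5 to 628. OsEPF2 was lower in OsEPF1-oe at each of the developing stages too. Since no listed gene was called higher at any stage, this shared direction is not a separate test.

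In mature florets OsICE1 and OsICE2, rice counterparts of the bHLH partners of SPEECHLESS, MUTE and FAMA, were called lower. OsICE1 averaged 1.97 ± 0.15 CPM in OsEPF1-oe and 2.99 ± 0.50 CPM in IR64, a log2 difference of -0.60 ± 0.13 (adjusted p = 0.022). OsICE2 averaged 1.84 ± 0.34 CPM in OsEPF1-oe and 2.91 ± 0.15 CPM in IR64, a log2 difference of -0.65 ± 0.12 (adjusted p = 0.013). Both calls were lost in a fit of the 6 mature libraries alone (0.73 for OsICE1 and 0.69 for OsICE2), without IR64 replicate 1 (0.093 and 0.056) and without OsEPF1-oe replicate 2 (0.088 and 0.089). OsICE1 also lost its call without IR64 replicate 2 (0.14) and OsICE2 without OsEPF1-oe replicate 3 (0.055).

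The receptor genes were called at no single stage. OsTMM, the counterpart of the receptor-like protein TMM, averaged 7.84 ± 1.2 CPM at stage 1 in OsEPF1-oe and 11.8 ± 1.7 CPM in IR64. OsER1, an ERECTA-type receptor kinase gene, averaged 578 ± 68 CPM at stage 1 in OsEPF1-oe and 591 ± 61 CPM in IR64. In the mean over stages 1 to 5, the contrast chosen after the values were seen, 5 of the 24 genes were called lower and 1 higher, against 6.79% of all genes lower and 5.82% higher. Besides OsMUTE and OsFAMA these were OsMKK4, a MAP kinase kinase, at -0.46 ± 0.08, OsSDD1, counterpart of a protease that limits stomata in Arabidopsis, at -2.43 ± 0.53 on 20 reads against 166, OsICE1 at -0.16 ± 0.04 and, as the only one higher, the ERECTA-type gene OsER2 at 0.14 ± 0.04.

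Listed genes called between successive stages were mostly lower at the later one in both lines, as OsEPF2 and OsEPFL9a were. In OsEPF1-oe 3, 10, 8, 4 and 14 of the 24 were called lower at the 5 successive steps, and 0, 0, 0, 0 and 3 higher, against 2.74%, 9.30%, 5.76%, 3.18% and 33.2% of all genes called lower and 6.32%, 13.1%, 6.39%, 4.55% and 36.1% called higher. In IR64 3, 11, 10, 5 and 15 were called lower and 1, 0, 0, 0 and 2 higher, against 3.12%, 8.58%, 7.94%, 4.31% and 32.6% of all genes called lower and 7.68%, 11.1%, 7.30%, 6.13% and 36.1% called higher. OsTMM was called lower at the last 4 steps in each line. OsEPFL9b was instead called higher at the first 2 steps in each line, and was called lower with most of the list at the step to maturity.

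The genes most like each peptide gene over the 18 IR64 libraries, by Pearson's r of log2 CPM among 22311 genes, are given by ID, since the sources used here do not name them. For OsEPF1 they were Os03g0249400 and Os05g0556700 (r = 0.98 each), for OsEPF2 Os12g0588800 and Os05g0476100 (0.99 each), for OsEPFL9a Os12g0294100 and Os01g0748000 (0.98 each) and for OsEPFL9b Os02g0653000 and Os10g0522601 (0.99 each). The libraries share 6 stages, so high values are frequent: 1540, 1858, 801 and 932 genes passed an r of 0.9 with OsEPF1, OsEPF2, OsEPFL9a and OsEPFL9b in that order.

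None of those 8 genes was called between the lines at a developing stage, where their log2 differences lay between -0.38 and 0.33. Os12g0588800 and Os05g0476100, which tracked OsEPF2 in IR64, were at 41.5 and 28.0 CPM at stage 4 in OsEPF1-oe and at 34.9 and 24.6 CPM in IR64, while OsEPF2 was 20.1-fold lower in OsEPF1-oe. In mature florets Os10g0522601 was called lower in OsEPF1-oe, at 57.0 CPM in OsEPF1-oe and 81.7 CPM in IR64 (log2 difference -0.52 ± 0.13, adjusted p = 0.027). In the mean over stages 1 to 5 Os12g0294100 was called lower, at -0.13 ± 0.04 (adjusted p = 0.029), the opposite direction to OsEPFL9a, which it tracked in IR64.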

How the data were processed

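Florets of 2 rice lines were profiled by RNA-seq in 36 libraries, 3 for each line and stage. The authors deposited 1 table of raw counts of reads per gene ID. Trimmomatic 0.38, HISAT2 2.1.0, featureCounts of Subread 2.0.0 and the IRGSP-1.0 build are named in the submitters' processing notes; whether the counting used strand is not stated there, and a gene and an antisense neighbour therefore cannot be told apart.

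The tests used edgeR 4.0.16 under R 4.3.3 (filterByExpr, TMM scaling, robust quasi-likelihood fit of 12 group means over all 36 libraries). Contrasts were OsEPF1-oe over IR64 at each stage, each later stage over the one before it within a line, and an F test of line by stage over stages 1 to 5. Intervals cover 95%, and those on read numbers, with the floor of 3 counts, cover counting error only. Intervals on log2 differences use the standard error worked back from the F value. CPM in the text is scaled. A ratio with a group of 1 to 3 reads has an exact counting interval. The settings tried in turn were DESeq2 1.42.0, scaling by RLE or by upper quartile, no filter, a filter of 5 CPM in 3 libraries, only the libraries compared, a replicate block and each library left out in turn.

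The rule for the 4 peptide genes uses IDs alone, but they, the 24 pathway genes and the marker lists were chosen with earlier results of these data known. Genes named outside the 4 were the pathway genes called between the lines, with OsTMM, OsER1 and OsSLAC1 named after their values were seen, and the 2 tested genes most like each peptide gene in IR64, among those of at least 1 CPM there. Names come from general knowledge of rice: a RefSeq table matched 1 of the 37862 IDs, named none of the 4 peptide genes, and had 1 row each for 7 of the 24 pathway symbols, 6 of them within 0.02 of the same relative place on the chromosome. The 3 developing replicates come from separate plant pools; the origin of mature replicates beyond "biological" is not given. No 2 libraries of the same group agreed within sampling noise.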

Additional observations from a re-analysis of the deposited data

Results flagged for a closer look

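The difference between OsEPF1-oe and IR64 in OsEPF1 was not the same at every developing stage. The test of line by stage gave an adjusted p of 5.5e-07, with log2 differences of 9.15, 9.65, 10.75, 12.20 and 12.69 over stages 1 to 5. OsEPF1-oe means were 1154 CPM at stage 1 and 3326 CPM at stage 5, and IR64 means were 2.00 CPM and 0.499 CPM at the same stages.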

How the results depend on the processing

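The calls of OsEPF1 and OsEPF2 between the lines, and the absence of a single-stage call for OsEPFL9a and OsEPFL9b, held under every alternative run. Signs turned for values near 0, none of them called. With 1 library left out, OsEPFL9b between the lines ranged from -0.20 to 0.0457 (log2) at stage 1, from -0.0952 to 0.05004 at stage 2 and from -0.0472 to 0.12 at stage 5, where a fit of the libraries compared gave -0.0072. OsEPFL9a between the lines at maturity ranged from -0.34 to 0.19. Within lines, OsEPF1 in IR64 ranged from -0.28 to 0.11 from stage 1 to 2 and from -0.63 to 0.0897 from stage 4 to 5. OsEPFL9a in IR64 from stage 5 to maturity ranged from -0.27 to 0.27 and was 0.0599 with RLE, 0.0606 with the stricter filter, 0.0573 with DESeq2 and 0.0043 with no filter. In OsEPF1-oe, OsEPFL9a from stage 1 to 2 ranged from -0.0638 to 0.0825 and OsEPFL9b from stage 4 to 5 from -0.0507 to 0.20. The line by stage test of OsEPF2 gave adjusted p-values of 0.024 to 0.18 with 1 library left out and 0.0011 with DESeq2. The cause of these changes was not tested.

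Counts of all genes called between the lines moved most. They were 223, 315, 453, 635, 654 and 541 over stages 1 to 5 and maturity, 144, 223, 56, 396, 99 and 8 in fits of the libraries compared, and 378, 547, 717, 1091, 958 and 941 with DESeq2. With 1 library left out the lowest were 119, 159, 213, 286, 265 and 274. The line by stage test called 318 genes and 841 with DESeq2. Upper-quartile scaling moved the median of all genes by -0.18 in IR64 and -0.12 in OsEPF1-oe from stage 5 to maturity, and the share of calls that were higher between the lines at maturity was 51.8% with it, against 38.1%.

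Deviations of same-numbered replicates correlated at -0.29 to 0.45 over 48 pairs, and 21 pairs passed 0.1. All pairs passed it in 2 of 16 comparisons, both within IR64 (stages 3 to 4 and 4 to 5). Values were all positive, but weaker, in IR64 from stage 1 to 2 (0.036 to 0.17) and from stage 2 to 3 (0.094 to 0.32). The same held in OsEPF1-oe from stage 3 to 4 (0.015 to 0.28) and from stage 4 to 5 (0.0057 to 0.27). Between the lines it held at stage 5 (0.072 to 0.19). Each other comparison had at least 1 negative value. Pairing is thus not limited with certainty to the 2 IR64 steps in which all pairs passed 0.1, and the main tests treat libraries as unpaired. The replicate block changed 1 call, OsEPF2 from stage 4 to 5 in OsEPF1-oe (adjusted p = 0.058), and no other call of the 4 genes. That block gives a replicate number the same effect in both lines and at all stages, so it cannot decide whether pairing within a line matters. Depth limits OsEPF2 in OsEPF1-oe from stage 3 on and OsEPF1 in mature IR64, where groups held 11 reads or fewer.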
